A study of Mus musculus with 4 samples.

Results

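The genes described here encode nucleolar ribosome assembly factors, the proteins that transcribe, cut, modify and fold the precursor of ribosomal RNA and build the ribosomal subunits on it. They were taken from a list of 48 genes in 4 classes, with 15 small-subunit factors, 19 large-subunit factors, 9 proteins of small nucleolar ribonucleoproteins (snoRNPs) and 5 factors of RNA polymerase I (Pol I) transcription. Of these 48 genes, 46 could be read from a probe set that names no other gene, as could 19938 genes of the array table in all, and each of the 46 was among the 14953 genes tested. *Noc2l* and *Ppan* were not analysed here, because no probe set was annotated to *Noc2l* and that of *Ppan* named other genes as well. The list was chosen with earlier results of these arrays known.

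CD8+ T cells, naive per the design text and obtained by magnetic negative selection from spleen and lymph node of wild-type C57BL/6 mice, were cultured for 2 days in RPMI with 10% FCS, and RNA of 2 replicates per group was hybridised to 4 arrays. Tc17 cells, which are IL-17-producing CD8+ T cells, were cultured with IL-2, IL-6, TGF-β and an antibody against IFN-γ. Cytotoxic T lymphocytes (CTLs) were cultured with IL-2 and the same antibody, so that, among these additions, IL-6 and TGF-β were what set the Tc17 cultures apart. The study's methods also give antibodies against CD3 and CD28 for the priming of Tc17 cells, and describe no CTL culture. The study used these arrays to define the gene sets of both cell types, and the question here is how the ribosome assembly genes differ between them. Replicates are labelled biological, but whether each came from its own animal is not stated. A limma p-value therefore reflects only the spread among these 4 samples, moderated for each gene by the spread over all genes tested.

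In the nucleolus, Pol I transcribes a long precursor RNA, snoRNPs guide its chemical modification and early cuts, and separate sets of factors then assemble the small (40S) and the large (60S) subunit before export to the cytoplasm. T cells that have been activated grow and divide quickly, and they make many ribosomes as they do so. The transcription factor MYC is known to drive many ribosome assembly genes, and with its partner MAX it binds the E-box motif CACGTG.

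The array medians were 3.20 and 3.19 in Tc17 cells and 3.18 and 3.19 in CTLs (deposited RMA values, taken as log2), and arrays of a group correlated at 0.993 across the tested genes in either group. Over all genes tested, 1113 were lower in Tc17 cells (7.44%) and 1229 were higher (8.22%) at a limma adjusted p under 0.05. With 1 array left out the share of lower genes was 3.93% without Tc17 replicate 2, 4.35% without CTL replicate 1, 5.7% without CTL replicate 2 and 6.53% without Tc17 replicate 1. The median difference over these genes was 0.02. CD8 T cell markers were bright in every array, at 8.65 to 10.66 in Tc17 cells and 7.93 to 9.64 in CTLs. Of these 6 markers 4 (*Cd8a*, *Cd3d*, *Cd3e* and *Cd3g*) were higher in Tc17 cells, and their part in the results below was not tested. The 5 myeloid markers lay between 2.26 and 2.78 in Tc17 cells and between 2.32 and 3.03 in CTLs, and *Cd4* was at 3.28 and 2.83 in Tc17 cells and at 3.21 and 2.92 in CTLs. Of the other markers, the B cell gene *Cd79b* and the receptor gene *Klrk1*, which activated CD8+ T cells also express, reached 5.14 and 5.32 in Tc17 cells and 4.78 and 5.23 in CTLs. The B cell markers *Ms4a1*, *Cd79a* and *Pax5* and the natural killer cell markers *Ncr1* and *Klrb1c* lay between 1.92 and 3.25 over the 4 arrays. The CD4 lineage regulator *Zbtb7b* was at 4.53 and 4.34 in Tc17 cells and at 4.97 and 5.16 in CTLs, a decrease (limma adjusted p = 0.00923) whose part was not tested either.

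Nucleolar ribosome assembly genes were lower in Tc17 cells than in CTLs in all 4 classes. Of the 46 members tested, 40 fell at a limma adjusted p under 0.05 and 0 rose, beside 7.44% of all genes tested that fell. At an unadjusted p under 0.05, too, 0 members rose, since the difference was below 0 for every one of the 46. The median difference was -0.80 on the log2 scale, 1.75-fold lower, and single differences ran from -1.23 to -0.21 with standard errors of 0.13 to 0.18. In 45 of the 46 both Tc17 arrays lay under both CTL arrays, beside 24.8% of all genes tested, and *Rrp1b* was the exception. The adjusted p of the 40 ran from 4.15e-04 to 0.0495. The probe sets of all 46 members had means above the median gene mean of 3.39, and among the 9969 genes at or above that median 11.9% were lower in Tc17 cells when tested alone. Only *Gnl3*, *Wdr75*, *Utp20*, *Nip7* and *Polr1a* were at least 2-fold lower and past the threshold, with *Wdr43* and *Rrp9* just short of it. In a culture measured in bulk, fewer cells that express a gene and less of its RNA per cell cannot be told apart.

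**Figure D1:**
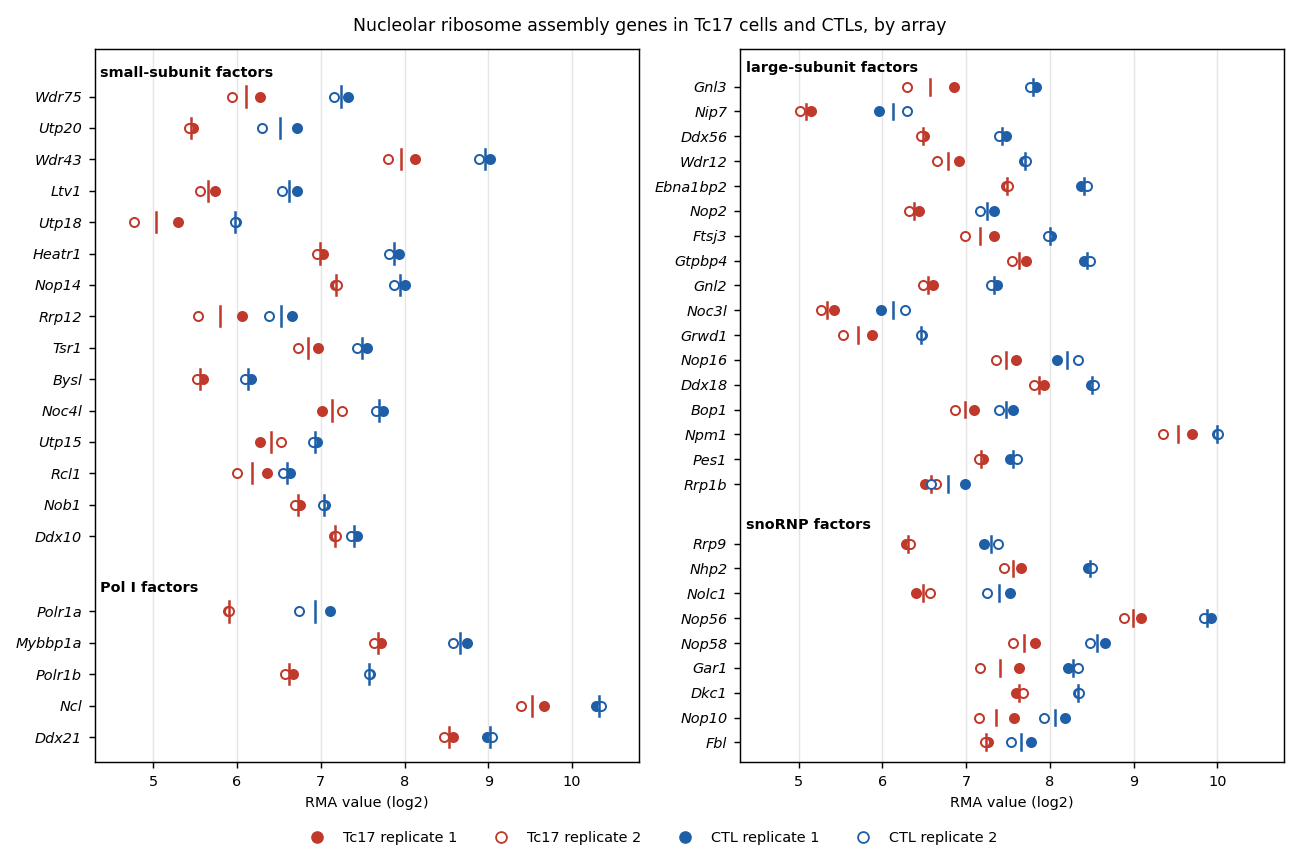
RMA values (log2, horizontal axis) of the 46 nucleolar ribosome assembly genes, by class and in order of their difference. Each circle is an array, red for Tc17 and blue for CTL, with replicate 1 filled and replicate 2 open, and a vertical bar marks each group mean. In 45 genes both red circles lie left of both blue circles, and in *Rrp1b* they overlap.

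The E-box windows of the members are shown here because they hold CACGTG, the motif to which MYC and MAX are known to bind. Whether either binds at these windows was not tested. RefSeq promoters on GRCm38.p6, running from 250 bases before to 50 bases after the annotated start of transcription, were given for 43 of the 48 members, and 9 of the 43 held a CACGTG. The motif reads the same on both strands, so one search covers both. Each window below is 30 bases long and is read 5′ to 3′ on the strand of its gene, with the E-box in capitals.
Ltv1: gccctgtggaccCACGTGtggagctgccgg
Tsr1: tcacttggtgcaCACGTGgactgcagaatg
Utp18: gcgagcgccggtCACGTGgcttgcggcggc
Utp20: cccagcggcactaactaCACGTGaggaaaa
Wdr43: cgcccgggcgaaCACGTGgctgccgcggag
Grwd1: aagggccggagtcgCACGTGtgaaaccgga
Nop2: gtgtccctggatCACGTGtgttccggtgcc
Pes1: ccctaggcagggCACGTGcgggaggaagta
Mybbp1a: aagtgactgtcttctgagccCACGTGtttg

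In these windows the E-box of 7 genes lay after the start, in the first bases of the transcript, and that of *Nop2* and *Utp18* lay before it. Its first base was at position 3 in *Pes1* (chr11:3963965-3963994, plus strand), 18 in *Wdr43* (chr17:71616220-71616249, plus strand), 25 in *Tsr1* (chr11:74898092-74898121, plus strand) and 29 in *Ltv1* (chr10:13193092-13193121, minus strand), counting the first transcribed base as 1. It was at position 35 in *Grwd1* (chr7:45830740-45830769, minus strand), 38 in *Utp20* (chr10:88826765-88826794, minus strand) and 41 in *Mybbp1a* (chr11:72441347-72441376, plus strand). In *Utp18* (chr11:93885769-93885798, minus strand) it began 20 bases before the start, at position -20, and in *Nop2* (chr6:125131811-125131840, plus strand) at position -60. The coordinates in parentheses are those of the windows. The 9 genes were 20.9% of the 43 members with a promoter, while 8.09% of the 27025 genes in the promoter table and 10.9% of the 11808 tested genes in it held the motif. These shares describe letters in a window and not binding. The 9 members with an E-box had a median difference of -0.95 (from -1.06 to -0.38), and the 32 members without one and with a probe set had a median of -0.83 (from -1.23 to -0.21), so the ranges overlapped over most of their length.

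Most genes for factors of the small subunit were lower in Tc17 cells. Of the 15 tested, 12 fell and 0 rose, with a median difference of -0.73, and the 3 lowest differences were those of subunits of the small-subunit processome, the earliest complex on the precursor. *Wdr75*, which encodes a subunit of the UTPA group that loads first on the nascent precursor, had 6.28 and 5.94 in Tc17 cells and 7.33 and 7.16 in CTLs. It was 2.20-fold lower (log2 difference -1.14 ± 0.15 SE, limma adjusted p = 4.16e-04), and 0.88 lay between the nearest arrays of the groups. *Utp20*, a large scaffold protein of the processome, had 5.48 and 5.42 in Tc17 cells and 6.71 and 6.30 in CTLs (-1.06 ± 0.15, limma adjusted p = 8.24e-04). *Wdr43*, another UTPA subunit, had 8.12 and 7.80 in Tc17 cells and 9.02 and 8.89 in CTLs (-1.00 ± 0.14, limma adjusted p = 8.27e-04). The Tc17 arrays of *Wdr75* and *Wdr43* were further from each other than the CTL arrays were, and those of *Utp20* were closer. *Heatr1* (-0.88) and *Utp15* (-0.53), which encode UTPA subunits as well, *Utp18* (-0.95), whose yeast counterpart brings in the exosome helicase, and *Nop14* (-0.76), which in yeast pairs with the product of the *Noc4l* ortholog, also fell. The highest adjusted p among these 4 was that of *Utp15*, at 0.0226 (limma).

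Among genes for factors found on the pre-40S particle, *Ltv1*, *Tsr1*, *Bysl* and *Rrp12* also fell, and *Nob1*, described below, did not pass the threshold. *Ltv1*, whose product sits on the head of the pre-40S particle, fell by 0.97 ± 0.14 (limma adjusted p = 6.63e-04), with 5.74 and 5.56 in Tc17 cells and 6.71 and 6.53 in CTLs. *Tsr1*, a GTPase-like factor of the same particle, had 6.97 and 6.73 in Tc17 cells and 7.56 and 7.44 in CTLs (-0.65 ± 0.14, limma adjusted p = 0.0079). *Bysl*, the ortholog of yeast Enp1, had 5.59 and 5.52 in Tc17 cells and 6.17 and 6.10 in CTLs (-0.58 ± 0.13, limma adjusted p = 0.00956). *Rrp12*, which in yeast takes part in export of both subunits, had 6.06 and 5.53 in Tc17 cells and 6.66 and 6.39 in CTLs. Its Tc17 arrays lay 0.52 apart, and the difference of -0.73 ± 0.18 (limma adjusted p = 0.0165) had the largest standard error of all 46 members.

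Of the small-subunit factors 3 did not pass the threshold. In each of them both Tc17 arrays lay under both CTL arrays, as they did in 24.8% of all genes tested. *Rcl1*, a cyclase-like protein of the processome, had 6.36 and 6.00 in Tc17 cells and 6.64 and 6.54 in CTLs (-0.41 ± 0.15, limma adjusted p = 0.0908). *Nob1*, the endonuclease that makes the last cut of 18S rRNA, had 6.75 and 6.69 in Tc17 cells and 7.05 and 7.02 in CTLs (-0.31 ± 0.13, limma adjusted p = 0.131). *Ddx10*, an RNA helicase, had the difference closest to 0 in this class, at -0.23 ± 0.13 (limma adjusted p = 0.289), with 7.16 and 7.18 in Tc17 cells and 7.44 and 7.36 in CTLs. Arrays of a group lay at most 0.0764 apart for *Nob1* and *Ddx10*, so that small differences separated the groups without overlap.

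Calls of 5 small-subunit genes were lost when 1 array was left out. Without Tc17 replicate 2 the differences were -0.47 for *Rrp12*, -0.53 for *Tsr1* and -0.54 for *Bysl*, and without CTL replicate 1 they were -0.59, -0.59 and -0.54 (limma adjusted p from 0.0544 to 0.138). *Noc4l*, which had 7.02 and 7.25 in Tc17 cells and 7.74 and 7.66 in CTLs (-0.57 ± 0.14, limma adjusted p = 0.0152), was lost without Tc17 replicate 1 (-0.45) and without CTL replicate 1 (-0.53). *Utp15*, with 6.28 and 6.53 in Tc17 cells and 6.95 and 6.91 in CTLs, was lost without Tc17 replicate 1 (-0.40), CTL replicate 1 (-0.51) or CTL replicate 2 (-0.54). In both of these genes Tc17 replicate 1 was the lower Tc17 array, and in the other 3 it was Tc17 replicate 2. *Rcl1* passed without Tc17 replicate 1 (-0.59, limma adjusted p = 0.0357). The class count was 7 of 15 without CTL replicate 1, where 4.35% of all genes were lower.

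Most genes for factors of the large subunit were lower in Tc17 cells, with 15 of 17 falling, 0 rising and a median difference of -0.78. *Gnl3*, which encodes the GTPase nucleostemin, known for its high level in dividing and stem cells, had 6.85 and 6.29 in Tc17 cells and 7.84 and 7.76 in CTLs. At -1.23 ± 0.17 (2.35-fold lower, limma adjusted p = 6.89e-04) it had the lowest difference of the 46, and its Tc17 arrays lay 0.56 apart, against 0.0743 between its CTL arrays. *Nip7*, a factor needed for maturation of 60S subunits, had 5.15 and 5.01 in Tc17 cells and 5.95 and 6.30 in CTLs (-1.04 ± 0.15, limma adjusted p = 7.12e-04). *Ddx56*, an RNA helicase of the nucleolus, had 6.50 and 6.46 in Tc17 cells and 7.48 and 7.39 in CTLs (-0.95 ± 0.13, limma adjusted p = 4.60e-04), so its arrays were close together within both groups.

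Bop1, Pes1 and Wdr12 proteins form the PeBoW complex, which is needed for the cut that frees 28S rRNA, and their transcripts differed by -0.92 to -0.38. *Wdr12* fell by 0.92 ± 0.14 (limma adjusted p = 9.51e-04), with 6.92 and 6.65 in Tc17 cells and 7.70 and 7.72 in CTLs, and a second probe set for it differed by -0.97. *Bop1* had 7.10 and 6.87 in Tc17 cells and 7.56 and 7.39 in CTLs (-0.49 ± 0.14, limma adjusted p = 0.0339). *Pes1* had 7.20 and 7.16 in Tc17 cells and 7.52 and 7.60 in CTLs, and its difference of -0.38 ± 0.13 did not pass the threshold (limma adjusted p = 0.0656), though it did with an intensity trend and robust moderation (limma adjusted p = 0.0347). Whether the 3 differences are themselves unlike was not tested.

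Of the other nucleolar GTPases, *Gtpbp4* (-0.81) and *Gnl2* (-0.78), the counterparts of yeast Nog1 and Nog2, fell. So did the RNA methyltransferase genes *Nop2* (-0.87) and *Ftsj3* (-0.84), whose products act on the precursor and on 28S rRNA, and the helicase gene *Ddx18* (-0.63, and -0.68 by a second probe set). *Ebna1bp2* (-0.92), *Noc3l* (-0.78) and *Nop16* (-0.73), orthologs of yeast 60S factors, and *Grwd1* (-0.76), whose yeast ortholog is a chaperone of the ribosomal protein Rpl3, fell as well. The limma adjusted p of these 9 genes ran from 5.64e-04 for *Ebna1bp2* to 0.00599 for *Ddx18*. In each of these 9 genes both Tc17 arrays lay under both CTL arrays, beside 24.8% of all genes tested.

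*Npm1* and *Rrp1b* lay at the other end of the class. *Npm1* encodes nucleophosmin, an abundant chaperone of the nucleolus, and had 9.70 and 9.36 in Tc17 cells and 9.99 and 10.00 in CTLs. Its difference of -0.47 ± 0.14 had a limma adjusted p of 0.0495, the highest among the genes that passed. It is also named in 3 rows of the table together with other genes, and is reported as uncertain where near-identical copies share its probes. *Rrp1b*, a nucleolar protein and binding partner of protein phosphatase PP1, had 6.51 and 6.64 in Tc17 cells and 6.99 and 6.58 in CTLs. CTL replicate 2 lay between the 2 Tc17 arrays, and the difference was -0.21 ± 0.15 (limma adjusted p = 0.455), or -0.00 without CTL replicate 1. The calls of *Npm1* and *Bop1* were lost without Tc17 replicate 2 (-0.30 and -0.38), CTL replicate 1 (-0.47 and -0.41) or CTL replicate 2 (-0.47 and -0.58). They were also lost after cyclic loess (*Npm1* -0.43, limma adjusted p = 0.0643, and *Bop1* -0.43, limma adjusted p = 0.0504).

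**Figure D2:**
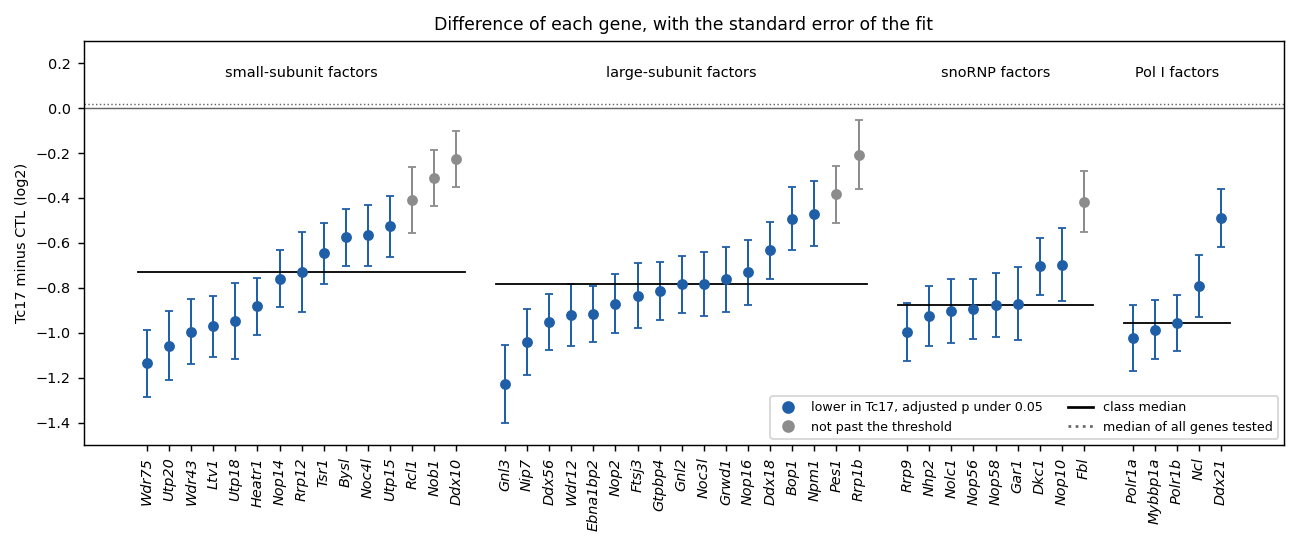
Tc17 minus CTL difference (vertical axis, log2) of each member in 4 classes, with bars for the standard error of the limma fit. Blue points passed the threshold and grey points did not, horizontal lines are the class medians from -0.73 to -0.96, and the dotted line is the median of all genes tested at 0.02. *Gnl3* has the lowest difference at -1.23 and *Rrp1b* the highest at -0.21.

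Transcripts of snoRNP proteins also fell, for 8 of 9 genes, with 0 rising and a median difference of -0.88. Box C/D snoRNPs guide 2′-O-methylation, and their core was represented by *Nop56*, *Nop58* and *Fbl*. *Nop56* had 9.09 and 8.89 in Tc17 cells and 9.92 and 9.84 in CTLs (-0.89 ± 0.13, limma adjusted p = 9.58e-04), and *Nop58* had 7.82 and 7.56 in Tc17 cells and 8.66 and 8.48 in CTLs (-0.88 ± 0.14, limma adjusted p = 0.00162). *Fbl*, which encodes the methyltransferase fibrillarin, had 7.26 and 7.22 in Tc17 cells and 7.77 and 7.54 in CTLs. It was the member of this class that did not pass, at -0.42 ± 0.13 (limma adjusted p = 0.0609). By a second probe set it differed by -0.53, and with the mean of both probe sets it passed (-0.47, limma adjusted p = 0.0299), as it did with a filter at the median gene mean (limma adjusted p = 0.0459) and with an intensity trend and robust moderation (limma adjusted p = 0.0306). *Rrp9*, a protein particular to the U3 snoRNP that guides early cleavage, had 6.28 and 6.33 in Tc17 cells and 7.22 and 7.38 in CTLs (-1.00 ± 0.13). Its limma adjusted p of 4.15e-04 was the lowest of the 46.

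Box H/ACA snoRNPs guide pseudouridylation, and the transcripts of all 4 of their core proteins fell. *Nhp2* had 7.66 and 7.45 in Tc17 cells and 8.46 and 8.50 in CTLs (-0.92 ± 0.13, limma adjusted p = 7.66e-04), and *Gar1* had 7.64 and 7.17 in Tc17 cells and 8.22 and 8.33 in CTLs (-0.87 ± 0.16, limma adjusted p = 0.00366). *Dkc1*, the pseudouridine synthase dyskerin, had 7.60 and 7.68 in Tc17 cells and 8.33 and 8.35 in CTLs (-0.70 ± 0.13, limma adjusted p = 0.0029). *Nop10*, a small protein that binds dyskerin, had 7.57 and 7.16 in Tc17 cells and 8.19 and 7.93 in CTLs (-0.70 ± 0.16, limma adjusted p = 0.0129). Its call was lost without Tc17 replicate 2 (-0.49) and without CTL replicate 1 (-0.57). *Nolc1*, a chaperone that binds both kinds of snoRNP, had 6.40 and 6.56 in Tc17 cells and 7.53 and 7.24 in CTLs (-0.91 ± 0.14, limma adjusted p = 0.00141).

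All 5 genes of the Pol I class fell, with a median difference of -0.96, the lowest of the 4 class medians. Of 10 other Pol I factors, described below, only 3 fell and 0 rose. Their median of -0.34 was the closest to 0 of the 4 lists of further assembly factors. *Polr1a*, the catalytic subunit, had 5.89 and 5.91 in Tc17 cells and 7.11 and 6.74 in CTLs (-1.02 ± 0.15, limma adjusted p = 7.99e-04). *Polr1b*, the other large subunit of the active centre, had 6.67 and 6.58 in Tc17 cells and 7.59 and 7.57 in CTLs (-0.96 ± 0.13, limma adjusted p = 4.40e-04). *Mybbp1a*, a nucleolar protein that associates with Pol I, had 7.72 and 7.63 in Tc17 cells and 8.75 and 8.58 in CTLs (-0.99 ± 0.13, limma adjusted p = 4.58e-04). Between the nearest arrays of the groups lay 0.83 for *Polr1a*, 0.91 for *Polr1b* and 0.86 for *Mybbp1a*. *Ncl*, which encodes nucleolin, had 9.66 and 9.39 in Tc17 cells and 10.29 and 10.34 in CTLs (-0.79 ± 0.14, limma adjusted p = 0.00251). *Ddx21*, a helicase that takes part in both transcription and processing of the precursor, had 8.58 and 8.47 in Tc17 cells and 8.98 and 9.05 in CTLs (-0.49 ± 0.13, limma adjusted p = 0.0235). Its call was lost without Tc17 replicate 2 (-0.43), CTL replicate 1 (-0.52) or CTL replicate 2 (-0.46). The class medians were not tested against each other.

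The decrease was present in both Tc17 arrays, with lower medians in replicate 2. The median deviation of the 46 members from the CTL mean was -0.72 in Tc17 replicate 1 and -0.91 in Tc17 replicate 2. By class it was -0.68 and -0.77 for small-subunit, -0.70 and -0.90 for large-subunit, -0.75 and -0.97 for snoRNP and -0.91 and -1.00 for Pol I genes. Tc17 replicate 2 was under Tc17 replicate 1 for 36 of the 46 members, beside 54.8% of all genes tested. CTL replicate 2 was under CTL replicate 1 for 31 members, beside 54.0% of all genes tested. Of the 40 members called, 31 passed in each of the 4 fits with 1 array left out, and the other 9 are those named above.

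**Figure D3:**
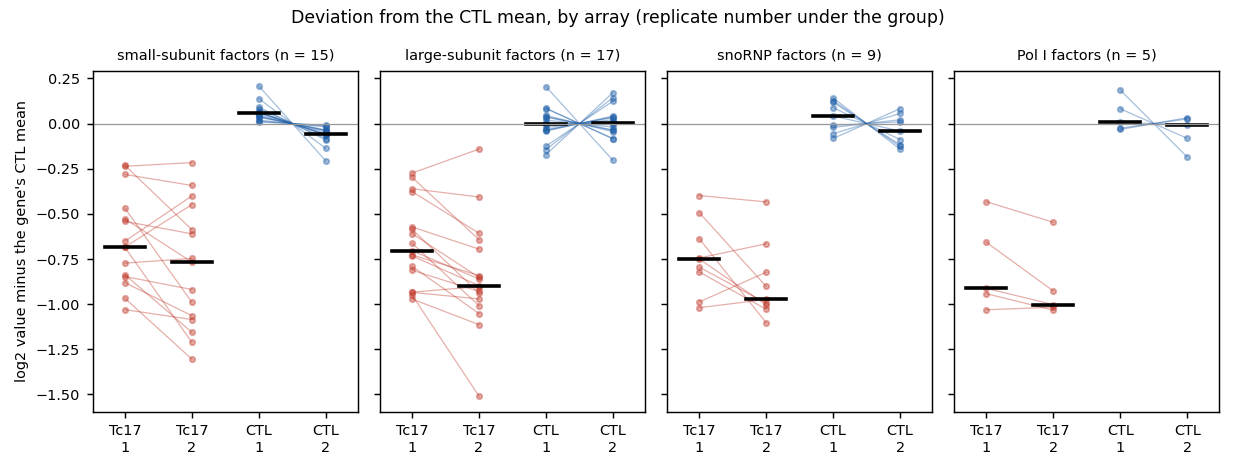
Value of each member minus the mean of its CTL arrays (vertical axis, log2), for the 2 Tc17 and the 2 CTL arrays in each class. Thin lines join the arrays of 1 gene within a group and black bars are class medians, which run from -0.68 to -0.91 in Tc17 replicate 1 and from -0.77 to -1.00 in Tc17 replicate 2.

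Other genes of the same machinery, which were not on the list of 48, were also lower in Tc17 cells. Of 99 further assembly factors with a tested probe set, 59 fell and 0 rose, with a median difference of -0.52, beside 7.44% of all genes tested that fell. The counts were 26 of 39 for large-subunit (median -0.55), 22 of 40 for small-subunit (-0.52), 8 of 10 for snoRNP (-0.68) and 3 of 10 for Pol I factors (-0.34). The lowest differences were those of *Rrp15* (-1.21 ± 0.15) and of *Mdn1*, an ATPase that remodels pre-60S particles (-1.15 ± 0.15), among large-subunit factors, and of *Aatf* (-0.96 ± 0.19) and *Nol10* (-0.92 ± 0.15) among small-subunit factors. *Znhit6*, which acts in assembly of box C/D snoRNPs (-1.20 ± 0.20), and *Tcof1*, which encodes treacle (-1.02 ± 0.15), led the snoRNP list, and *Taf1d* (-0.89 ± 0.17) and the initiation factor gene *Rrn3* (-0.58 ± 0.14) led that of Pol I. The limma adjusted p of these 8 genes ran from 0.00035 for *Rrp15* to 0.0173 for *Rrn3*. The count of 59 was 28 without Tc17 replicate 2 and 35 without CTL replicate 1, where 3.93% and 4.35% of all genes were lower. In these fits the large-subunit count was 12 and 14 and the small-subunit count 9 and 14, and the Pol I count was 1 in both and also without Tc17 replicate 1. Under an intensity trend with robust moderation, with the replicate number as a block and without Tc17 replicate 1, 1 of the 99 genes was higher.

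Lists of genes for neighbouring machinery had medians from -0.40 to -0.02, beside 0.02 over all genes tested, of which 7.44% were lower. The share lower was 50% for the RNA exosome, 24.4% for mitochondrial ribosomal proteins and 20% for polymerase II and III subunits. It was 10.5% for proliferation genes, near that of all genes, and 1.82% for cytosolic ribosomal proteins. Of the 19 proliferation genes, 10 had both Tc17 arrays under both CTL arrays, beside 24.8% of all genes tested, and 2 had both above. Shares of all genes with 1 array left out are given above. The RNA exosome, which trims rRNA ends, had 5 of 10 genes lower, led by *Exosc2* (-0.86 ± 0.14) and *Exosc7* (-0.85 ± 0.14), with a median of -0.40 (3 without Tc17 replicate 2 or CTL replicate 1). Of the subunits of RNA polymerases II and III, 4 of 20 were lower, led by *Polr3d* (-0.78 ± 0.15) and *Polr2h* (-0.76 ± 0.15), with a median of -0.18 (2 without Tc17 replicate 2). Of mitochondrial ribosomal proteins 19 of 78 were lower, led by *Mrps18b* (-0.95 ± 0.13) and *Mrpl47* (-0.88 ± 0.15), with a median of -0.28, and that count was 4 without Tc17 replicate 2, 11 without CTL replicate 1 and 12 without CTL replicate 2. The genes of the ribosome's own cytosolic proteins were not lower as a list. Many of their probe sets were brighter than the brightest member (mean 9.92), up to 12.40 for *Rpl10* in Tc17 replicate 1. Whether bright signal or near-identical copies that share probes narrow these differences was not tested. The median difference of the list was -0.02, and 1 of 55 genes fell. That gene was *Rpl12*, with 5.06 and 4.28 in Tc17 cells and 6.09 and 5.27 in CTLs (-1.01 ± 0.27, limma adjusted p = 0.0278), and its arrays lay 0.78 apart in Tc17 cells and 0.82 apart in CTLs. The count was 0 of 55 without Tc17 replicate 2 or CTL replicate 1. Among 19 proliferation genes, *Tyms* (-0.54 ± 0.13) and *Mcm2* (-0.45 ± 0.13) were lower, 0 were higher and the median was -0.15, and the count of 2 was 0 without CTL replicate 1 or CTL replicate 2 and 4 with an intensity trend and robust moderation. The differences between these lists were not tested.

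**Figure D4:**
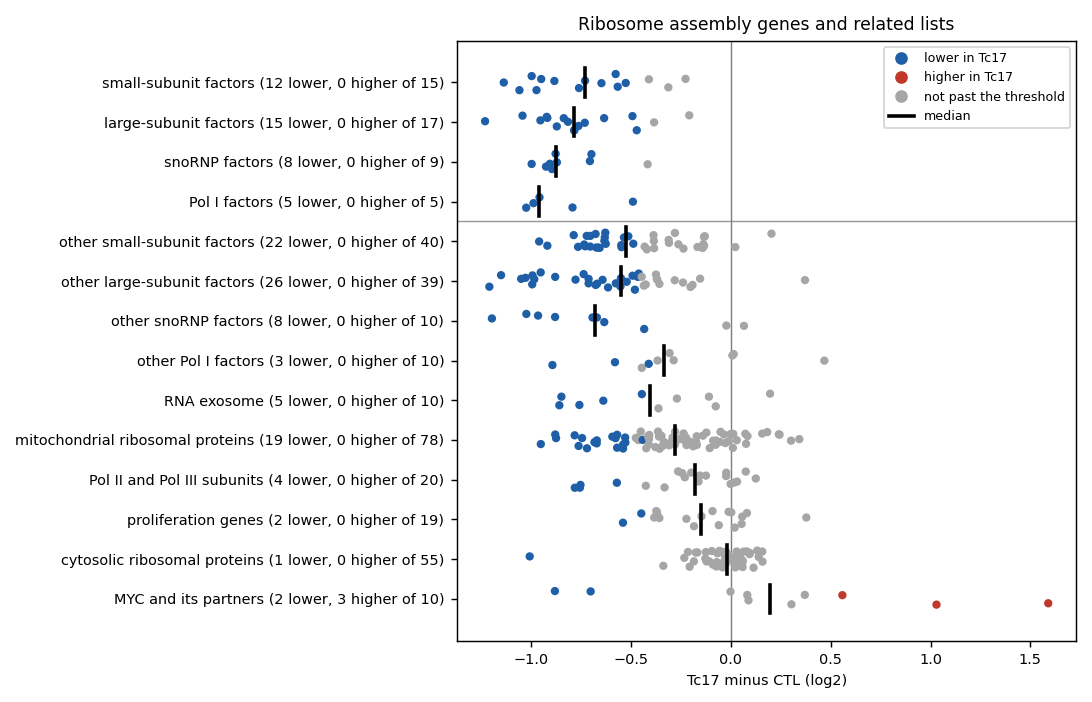
Tc17 minus CTL difference (horizontal axis, log2) of each tested gene in the 4 classes of members, above the line, and in related lists, below it. Colour marks genes past the threshold, blue for lower and red for higher in Tc17 cells, with the other genes in grey. Black bars show medians, which run from -0.96 for Pol I members to -0.02 for cytosolic ribosomal proteins and 0.20 for MYC and its partners.

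*Myc* itself was lower in Tc17 cells. It had 8.70 and 8.89 in Tc17 cells and 9.86 and 9.49 in CTLs, a difference of -0.88 ± 0.15 (1.84-fold lower, limma adjusted p = 0.00249), with 0.60 between the nearest arrays of the groups. Of 10 genes for MYC and its partners, 2 fell and 3 rose, beside 7.44% of all genes tested that fell and 8.22% that rose. The other that fell was *Mga*, a large partner of MAX that acts as a repressor (-0.70 ± 0.13, limma adjusted p = 0.00377). The 3 that rose encode MXD proteins, which compete with MYC for MAX and repress E-box genes. *Mxd4* had 6.56 and 6.69 in Tc17 cells and 5.01 and 5.07 in CTLs (3.01-fold higher, 1.59 ± 0.13, limma adjusted p = 1.59e-05), *Mxd1* was higher by 1.03 ± 0.13 (limma adjusted p = 2.68e-04) and *Mxd3* by 0.56 ± 0.14 (limma adjusted p = 0.0185). *Max* differed by 0.30 ± 0.14 (limma adjusted p = 0.185). Whether any of these transcripts bears on the level of the ribosome assembly genes was not tested.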

How the data were processed

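Total RNA of CD8+ T cells was amplified in 2 cycles of cDNA synthesis, labelled with biotin and hybridised, 1 array per sample. The authors deposited RMA values, taken here as log2, which are background-corrected, quantile-normalised and summarised per probe set. RMA's version and log base are not stated in any source used here, and the range of 1.18 to 13.70 is that of log2 intensities. Quantile normalisation hides a shift of all transcripts.

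Of 35557 rows, 21789 named 1 gene in the platform annotation, 1621 several and 12147 none. Each gene was read from its probe set with the highest mean. Genes with a mean under the 25th percentile (2.59) were left out. Tc17 and CTL were compared unpaired and two-sided with lmFit and eBayes of limma 3.58.1 in R 4.3.3, with Benjamini-Hochberg adjustment over 14953 genes at 0.05, after the procedure was tested on simulated data. Values after ± are standard errors of the fit. Over all genes tested, the deviations of same-numbered arrays had a correlation of 0.0195, which cannot show whether these arrays were prepared together. The arrays left 2 residual degrees of freedom and the prior gave 8.98. An exact permutation test of 2 against 2 arrays cannot give a p under 0.333. The number of arrays limits the precision.

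The members, the related lists and the naming rule were chosen with earlier results of these data known. By that rule all members are named, with values per array for the 3 lowest and the highest difference of each class, for calls that change without an array and for *Myc*, and 2 genes per direction of each related list. Values per array of other genes, *Max* and the marker genes named were added after the values were seen. Alternatives were other filters, moderation with an intensity trend and robust priors, median centring, cyclic loess, averaged probe sets, all rows tested at once, a block for the replicate number, stricter thresholds, the methods' t-test, and each array left out, where the lone sample is assumed to vary like the other group. Protein sequences were not used here. RefSeq promoters are those of GRCm38.p6. Python 3.11.15, pandas 2.3.3 and matplotlib 3.10.9 made tables and plots.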

Additional observations from a re-analysis of the deposited data

How the results depend on the processing

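All 46 members had a difference below 0 in the full fit, and also after median centring, cyclic loess, averaging of probe sets and with each array left out. The other alternatives keep the same differences and can change only the calls. The count of 40 lower members lay between 38 and 42 with no filter or one at the median gene mean, trended and robust moderation, median centring, cyclic loess and averaged probe sets. It was 28 at the stricter thresholds of the study's RNA-seq, where 2.75% of all genes were lower, and 31 to 39 with 1 array left out, where 3.93% to 6.53% were. With every row of the table tested it was 12, where 0.913% of all genes were lower and the prior degrees of freedom were 3.13 in place of 8.98. By the methods' t-test it was 35 without adjustment and 0 after Benjamini-Hochberg, where 0 of all genes passed. With the replicate block it was 39, and *Npm1* (adjusted p = 0.0507) lost its call. Whether same-numbered replicates were prepared together is not stated. The correlation of their deviations over all genes tested, 0.0195, cannot settle it. *Myc* lost its call with every row tested (adjusted p = 0.0857) and by the methods' t-test. The count of other assembly factors, 59 of 99, was 8 with every row, 19 at the stricter thresholds and 28 to 35 without Tc17 replicate 2 or CTL replicate 1. The number of arrays limits the precision.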
